A study of Mus musculus with 12 samples.

Results

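Protein-coding genes whose symbols begin with Srsf and a digit, Hnrnp, Snrp, Sf3a or Sf3b were taken from the gene count table, which gave 52 splicing factor genes of 55487 genes listed. They comprised 11 SR protein genes, 20 hnRNP genes, 12 genes for proteins of the U snRNPs and 9 genes for the SF3a and SF3b complexes. RNA-Seq was done on whole lungs of 12 C57BL/6J miR-30a-/- mice on postnatal day (PND) 21. The 3 lungs of each group came from males or females that had breathed 95% oxygen (hyperoxia) from PND 1 to 5, followed by room air, or room air throughout. All 4 groups carried the same deletion of the whole miR-30a gene, made with CRISPR/Cas9 in every cell, so the room air lungs served as controls for oxygen and not for the deletion, and wild-type lungs were not analysed here. Pups were pooled from several litters and allotted at random, and the labels do not tie a lung to a litter. The question addressed here was whether neonatal hyperoxia left these genes at another level by PND 21, and whether males and females differed in this.

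Splicing removes introns from pre-mRNA. The U1, U2, U4 and U5 small nuclear RNAs are each packed with a shared ring of Sm proteins, and U6 with a related ring of LSm proteins, into small nuclear ribonucleoproteins (snRNPs) that also hold proteins of their own, which recognise the splice sites and build the spliceosome. SF3a and SF3b are parts of the U2 snRNP and hold it at the branch point of the intron. SR proteins, which carry stretches rich in serine and arginine, mostly bind exons and favour their inclusion, while many of the heterogeneous nuclear ribonucleoproteins (hnRNPs) coat nascent transcripts and often favour exon skipping. Several SR and hnRNP genes limit their own level through exons that send the transcript to decay. Most of these factors are widely expressed, and a whole lung sums over all its cell types, so fewer cells of a type and less RNA per cell cannot be told apart.

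The counts ran from 8763033 to 16741694 per lung. Mir30a had 0 counts in all 12 lungs, which is a weak check of the deletion because reads of a gene this short are few in such libraries. Xist had 8834 to 27296 counts in females and 148 to 210 in males, and Ddx3y had 0 counts in females and 270 to 715 in males, so sex fitted the labels. Olfactory and vomeronasal receptor genes, which the lung should hardly express, took 0.435% to 1.00% of the counts, and this share, used here as a measure of reads that do not come from mature mRNA, was lowest in room air females 5 and 2 and in hyperoxia male 1. Skeletal muscle markers summed to 1671 CPM, counts scaled to a fixed library size, in room air male 1 and to at most 108 CPM in any other lung. The 7 alveolar type 2 markers, which define the epithelium that makes surfactant, summed to 4823 CPM or more in every lung.

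miR-30a, the microRNA that none of these lungs could make, binds mRNAs mainly through bases 2 to 8. Its mature 5p strand, taken from RefSeq (GRCm38.p6, chr1:23272274-23272295, plus strand), is shown with this seed in capitals because its target sites were searched in the splicing factor genes.
miR-30a-5p: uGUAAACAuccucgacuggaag
miR-30c-5p and miR-30e-5p, which are made from other genes, have the same seed. The 7 letters TGTTTAC, which pair with the seed, occurred in the longest annotated 3' untranslated region of 14 of the 52 genes (26.9%), against 13.8% of 20983 protein-coding genes, and 7 of the 14 also had the A that lengthens the match to 8 letters (13.5% of the 52 genes, against 6.80%). The median length of these regions was 847 bases for the splicing factor genes and 962 bases for all. The shares were not corrected for length, and the 14 regions with a match ran from 206 bases (Snrpc) to 19419 bases (Hnrnpr). Stretches of 30 bases around the first match are printed for the 6 of these genes that fall under the naming rule of the text, read from GENCODE M21 transcripts (GRCm38) in the sense of the mRNA, with the match in capitals.
Srsf7, chr17:80201494-80201523, minus strand: aaaagttatttTGTTTACAttattataagg
Srsf12, chr4:33232981-33233010, plus strand: tcaaagagataTGTTTACAgatttactctg
Hnrnpab, chr11:51601242-51601271, minus strand: aatcactctccTGTTTACtattccagagct
Snrpb2, chr2:143071733-143071762, plus strand: tatttgtattcTGTTTACtggtttattgtc
Snrpn, chr7:59982666-59982695, minus strand: gtctataattaTGTTTACAactatacatac
Sf3b4, chr3:96177448-96177477, plus strand: aaaagggaaggTGTTTACAttgtaaggatt
The median log2 change in hyperoxia over both sexes was -0.16 for the 14 genes with a match and -0.15 for the 38 without. In females these medians were -0.44 and -0.37, and in males 0.04 and 0.05. A match is a description of letters, and binding was not measured.

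RefSeq promoters (250 bases before to 50 after each start, GRCm38.p6) were found for 46 of the 52 genes, with 63 starts in all, and not for Hnrnpll, Hnrnpul2, Sf3b4, Sf3b5, Snrpb or Snrpd1. Their median G and C content was 61.0%, against 52.7% for all 32851 promoters of the table. On either strand, GGGCGG (a GC box) stood in 43 of the 63 promoters, against 35.7% of all promoters, and CCGGAAG (a core bound by ETS factors) in 21 of 63, against 8.86%. CCAAT stood in 28 of 63, against 37.4% of all, and TATAAA in 7 of 63, against 13.6%. None of the 4 motifs contains another, and matches may overlap in a promoter. These are counts of starts and not of genes: a gene with several starts counts repeatedly, and its windows can overlap, as for Hnrnph1. Of the 63 starts, 51 lay near the start of a GENCODE M21 transcript. By family, the ETS core was in 7 of 8 SF3 promoters, 6 of 14 SR promoters, 4 of 14 snRNP promoters and 4 of 27 hnRNP promoters, and the GC box in 13 of 14 SR, 21 of 27 hnRNP, 5 of 14 snRNP and 4 of 8 SF3 promoters. The promoter of the gene with the smallest unadjusted p in females is shown for each family, with these 4 motifs in capitals in either orientation.
Srsf7, chr17:80207256-80207555, minus strand: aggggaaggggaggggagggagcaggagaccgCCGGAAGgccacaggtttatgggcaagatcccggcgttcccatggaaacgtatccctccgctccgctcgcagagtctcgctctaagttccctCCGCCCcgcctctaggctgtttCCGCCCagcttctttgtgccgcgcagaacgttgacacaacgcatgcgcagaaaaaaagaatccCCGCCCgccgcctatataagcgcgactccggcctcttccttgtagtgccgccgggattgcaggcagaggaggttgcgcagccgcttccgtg
Hnrnpab, chr11:51606832-51607131, minus strand: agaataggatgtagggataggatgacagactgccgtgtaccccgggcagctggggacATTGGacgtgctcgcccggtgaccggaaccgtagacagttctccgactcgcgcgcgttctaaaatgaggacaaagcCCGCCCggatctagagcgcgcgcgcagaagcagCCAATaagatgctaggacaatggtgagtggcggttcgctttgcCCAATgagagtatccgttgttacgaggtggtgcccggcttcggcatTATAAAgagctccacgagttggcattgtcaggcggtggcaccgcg
Snrpb2, chr2:143062819-143063118, plus strand: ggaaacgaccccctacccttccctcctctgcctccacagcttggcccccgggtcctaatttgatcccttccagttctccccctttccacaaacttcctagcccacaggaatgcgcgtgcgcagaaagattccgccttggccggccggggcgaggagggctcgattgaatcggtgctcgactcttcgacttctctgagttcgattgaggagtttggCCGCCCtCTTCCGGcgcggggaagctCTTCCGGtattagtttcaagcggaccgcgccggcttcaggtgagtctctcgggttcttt
Sf3b3, chr8:110846754-110847053, minus strand: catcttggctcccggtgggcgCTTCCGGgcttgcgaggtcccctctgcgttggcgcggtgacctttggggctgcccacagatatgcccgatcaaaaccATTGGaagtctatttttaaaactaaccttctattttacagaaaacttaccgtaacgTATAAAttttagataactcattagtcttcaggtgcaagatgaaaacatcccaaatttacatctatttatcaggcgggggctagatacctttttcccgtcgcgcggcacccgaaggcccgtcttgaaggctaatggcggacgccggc
The Srsf7 stretch held 3 GC boxes and 1 ETS core, and that of Snrpb2 held 1 GC box and 2 ETS cores. Hnrnpab had 3 CCAAT boxes, 1 GC box and 1 TATAAA match, and Sf3b3 had 1 CCAAT box, 1 ETS core and 1 TATAAA match. These are matches of letters, whose distance from the start was not considered. The text below gives the levels of these 4 genes in single lungs.

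All 52 genes were expressed above the filter on low counts. Levels between genes were compared as CPM per kb of exon, averaged over the 12 lungs. The highest was Srsf5 with 29.9 CPM per kb, an SR protein gene known to respond to growth signals, followed by Srsf2 with 26.1 and by Hnrnph1 with 25.4, whose protein binds runs of G. The highest U snRNP gene was Snrpb, for the Sm proteins B and B', with 15.3 CPM per kb. In the SF3 group it was Sf3b1, for the large subunit that grips the branch point, with 19.95 CPM per kb. The lowest were Snrpf, for Sm protein F, with 1.40 CPM per kb and Srsf12 with 1.44 CPM per kb. At the density of reads on receptor genes, an estimated 86.1% of the Snrpf counts and 85.1% of the Srsf12 counts could be background, against 3.91% for Srsf5 and 46.1% for Snrpn.

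**Figure D1:**
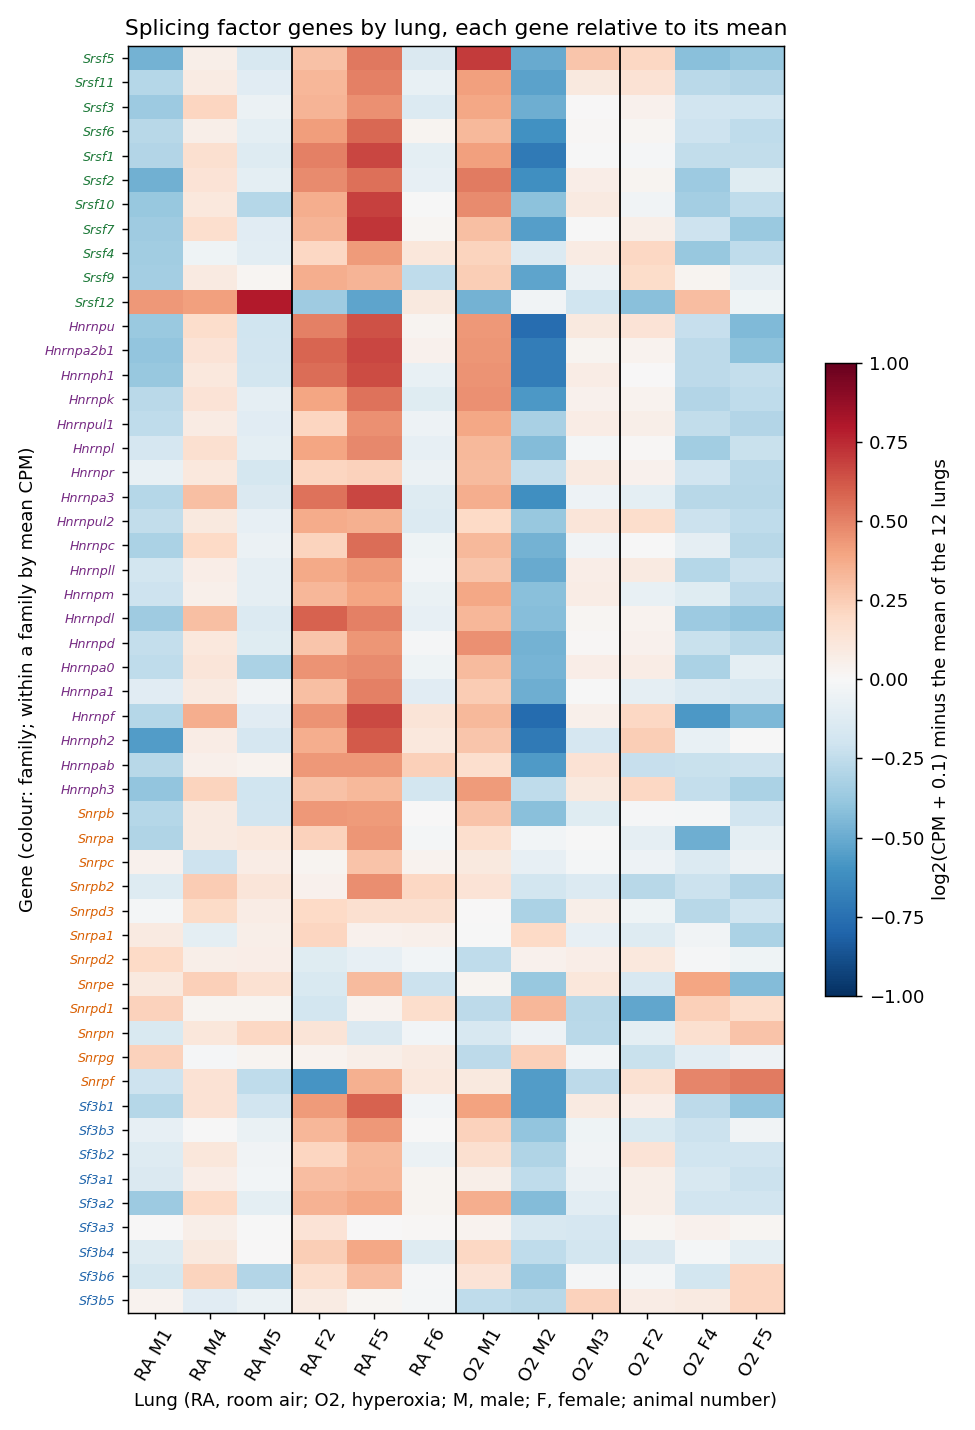
Heat map of log2(CPM + 0.1) of the 52 splicing factor genes (rows, coloured by family and ordered by mean level) in the 12 lungs (columns), each gene relative to its mean over the lungs. Most SR, hnRNP and SF3 genes were red in room air females 2 and 5 and in hyperoxia male 1 and blue in hyperoxia male 2, while Srsf12, Snrpd1, Snrpd2, Snrpg and Snrpn did not follow them.

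Most of these genes rose and fell together from lung to lung, across the exposure groups. Room air female 5 had the highest level of 33 of the 52 genes, and hyperoxia male 2 the lowest of 37. The summed level of the 52 genes was 3937.7, 4307 and 2946.5 CPM in room air females 2, 5 and 6, and 3121, 2567 and 2529.5 CPM in hyperoxia females 2, 4 and 5. It was 2513, 3304 and 2789 CPM in room air males 1, 4 and 5, and 3886, 2165 and 3118 CPM in hyperoxia males 1, 2 and 3. The groups therefore overlapped in both sexes. Over the 1326 pairs of genes the median Pearson r across the 12 lungs was 0.77, a description of points that share libraries, depth and normalization. The genes with the lowest median r to the other splicing factor genes were Snrpd1 with -0.54, Snrpd2 with -0.54, Srsf12 with -0.53, Snrpg with -0.38 and Snrpn with -0.20, 4 of them genes for Sm proteins.

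**Figure D2:**
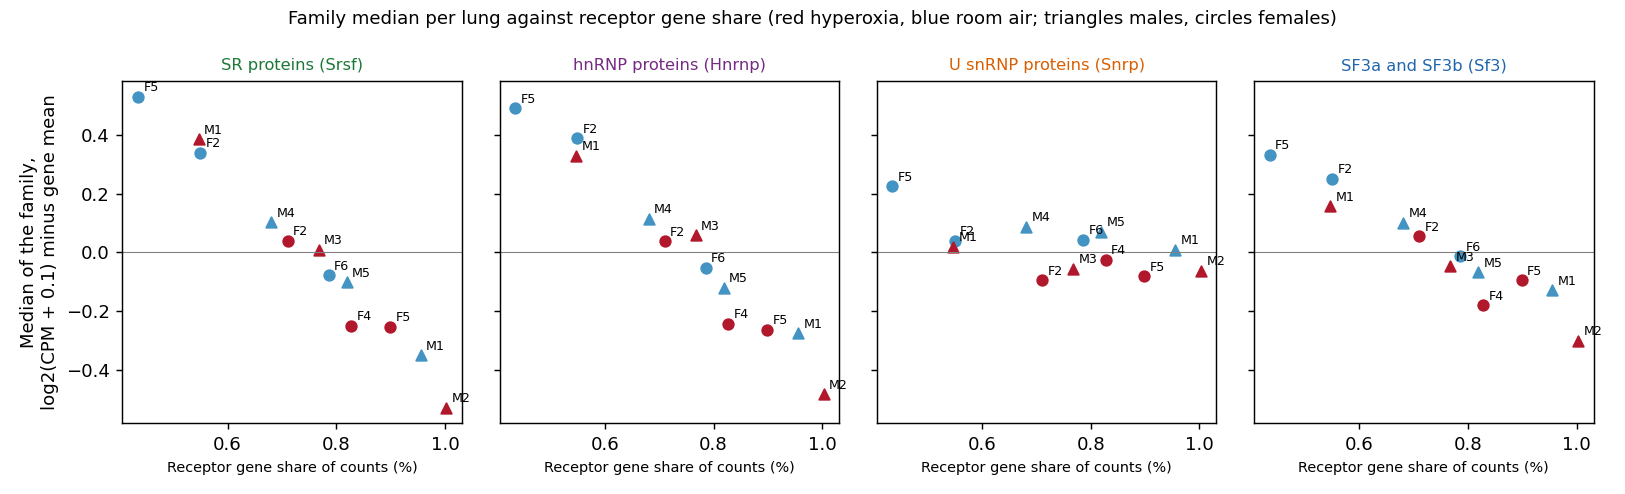
Median of each family per lung, as log2(CPM + 0.1) relative to each gene's mean over the 12 lungs, against the percentage of counts on olfactory and vomeronasal receptor genes (red hyperoxia, blue room air, triangles males, circles females, labels animal numbers). The SR, hnRNP and SF3 medians lay high in the lungs with a low receptor share, from 0.53 (SR) in room air female 5 to -0.53 in hyperoxia male 2, and the snRNP median varied less, from 0.22 to -0.10.

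These levels moved with the receptor share. The median SR gene stood 0.53 above its mean on the log2 scale in room air female 5, where the receptor share was 0.435%, and 0.53 below it (-0.53) in hyperoxia male 2, where the share was 1.00%. For hnRNP genes these medians were 0.49 and -0.48, for SF3 genes 0.33 and -0.30, and for U snRNP genes 0.22 and -0.06. The receptor share averaged 0.590% ± 0.179 (SD, n = 3) in room air females, 0.812% ± 0.095 in hyperoxia females, 0.818% ± 0.137 in room air males and 0.772% ± 0.228 in hyperoxia males. Its part in the results was not tested beyond the values given below.

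Over both sexes, none of the 52 genes was called between hyperoxia and room air by edgeR's quasi-likelihood test with Benjamini-Hochberg adjustment, and the smallest adjusted p was 0.834. A call required an adjusted p below 0.05 together with a change of more than 1.5-fold. DESeq2, which gave no adjusted p for Srsf12, Snrpg and Snrpf here, called none of the others and 0.2% of the 20035 genes to which it gave one, with 3 of the 52 lower at an unadjusted p under 0.05. Of all 45828 genes tested, 19 (0.0415%) were called. Of the 52 genes, 50 had lower estimates in hyperoxia, with a median log2 change of -0.15, against a median of -0.06 over 13443 well-counted protein-coding genes (mean of 10 CPM or more), of which 67.6% had lower estimates, and of 0.03 over all genes tested. At an unadjusted p under 0.05, 4 of the 52 genes were lower and none was higher, against 2.52% lower and 2.67% higher of all genes and 5.78% lower of the well-counted genes. No gene of the 52 had all hyperoxia lungs under all room air lungs, against 0.12% of all genes and 0.335% of the well-counted genes, and none had them all over, against 0.0938% and 0.0744%. A fit without room air females 2 and 5 was added after the values were seen, because these genes stood highest there. It leaves room air female 6 alone in its group and shifts the hyperoxia estimates upwards by this choice. The median of the 52 genes was then -0.01, and 29 had lower estimates. When the receptor share entered the model the median was -0.04 with 35 lower, and with protein-coding genes alone -0.07 with 41 lower, against 0.02 for the well-counted genes. As single lungs were left out, the count of genes lower at an unadjusted p under 0.05 was 15 without hyperoxia male 1, 11 without room air female 6, 7 without room air male 1, 2 without room air female 2 or hyperoxia female 4, and 1 without room air male 4 or hyperoxia male 2.

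Snrpb2 (ENSMUSG00000008333, mm10 chr2:143063039-143072853, plus strand), which encodes the U2-specific protein B'' that binds a stem-loop of the U2 RNA, had the smallest unadjusted p of the 52. Its level was 15.4, 20.2 and 18.3 CPM in room air males 1, 4 and 5, 17.4, 23.3 and 19.5 CPM in room air females 2, 5 and 6, 18.5, 14.8 and 15.4 CPM in hyperoxia males 1, 2 and 3, and 13.9, 14.5 and 13.7 CPM in hyperoxia females 2, 4 and 5. The groups overlapped through hyperoxia male 1 alone, which lay above room air males 1 and 5 and room air female 2. The log2 change was -0.33 (SE 0.11, edgeR unadjusted p = 0.00475, adjusted p = 0.834), and it lay between -0.38 and -0.25 over all settings tried. Its share of estimated background was 19.8%.

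3 further genes were lower at an unadjusted p under 0.05 over both sexes. Hnrnpab (ENSMUSG00000020358, mm10 chr11:51600100-51606847, minus strand), whose protein belongs to the A/B type of hnRNPs, had a median of 30.3 CPM (22.6 to 37.1) in the 6 room air lungs and of 23.6 CPM (18.5 to 30.8) in the 6 hyperoxia lungs, a log2 change of -0.29 (SE 0.12). Snrpd3, for Sm protein D3, had a median of 17.3 CPM (15.2 to 17.7) in room air and of 14.2 CPM (12.4 to 16.1) in hyperoxia, a change of -0.25 (SE 0.10). Hnrnpf, whose protein binds runs of G as that of Hnrnph1 does, had a median of 33.6 CPM (23.2 to 44.6) in room air and of 24.97 CPM (16.5 to 35.4) in hyperoxia, a change of -0.36 (SE 0.17). All 3 overlapped between the exposures, and edgeR gave each an adjusted p of 0.927. Of the exonic windows of 75 letters of Hnrnpf, 39.0% occur in other genes or pseudogenes, so part of its reads may be shared with copies.

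In females, 47 of the 52 genes had lower estimates in hyperoxia, with a median log2 change of -0.38, against -0.18 over the well-counted genes and 0.11 over all genes. None was called by edgeR, with a smallest adjusted p of 0.290, or by DESeq2. Of all genes edgeR called 1 (0.00218%) and DESeq2 44 (0.0961%). At an unadjusted p under 0.05, 17 of the 52 genes were lower and none was higher, against 5.28% lower and 7.32% higher of all genes and 14.2% lower of the well-counted genes. DESeq2 put this count at 30, a fit of the 6 female lungs alone at 28 (smallest adjusted p 0.0579), and the fits with protein-coding genes alone or with background subtracted at 10 each. The shares of all genes at this level were not computed for these fits, so the shares above hold for the main fit only. In 13 of the 52 genes every hyperoxia female lay under every room air female, against 6.42% of all genes and 15.8% of the well-counted genes, and in none did every hyperoxia female lie over them, against 10.8% and 4.54%. The 13 were Hnrnpa2b1, Hnrnpab, Hnrnpm, Sf3b3, Snrpa, Snrpa1, Snrpb, Snrpb2, Snrpc, Snrpd3, Snrpg, Srsf6 and Srsf10.

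The female values depended on single lungs. The count at an unadjusted p under 0.05 was 7 without room air female 2, 4 without room air female 5, 36 without room air female 6, 5 without hyperoxia female 4 and 6 without hyperoxia female 5. It was 28 without hyperoxia male 1 and 30 without hyperoxia male 2, which enter through the shared estimate of spread. Without both room air females 2 and 5, which leaves room air female 6 alone, the median change was -0.08. When the receptor share entered the model, the median change was -0.03 and 3 genes were lower at an unadjusted p under 0.05. With estimated background subtracted from the counts it was -0.26 over 51 genes. The scaling moved the level of all changes: with protein-coding genes alone the female median was -0.19, against 0.01 for the well-counted genes, and with DESeq2 it was -0.49, against -0.28.

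**Figure D3:**
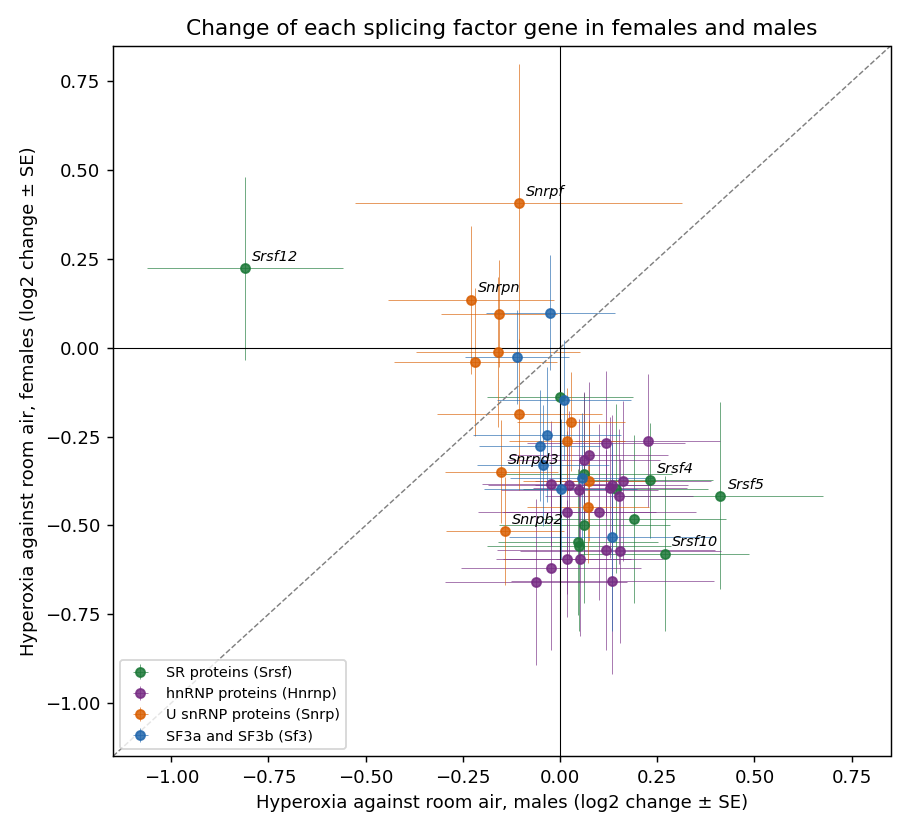
Log2 change between hyperoxia and room air of each of the 52 splicing factor genes in females (vertical axis) against males (horizontal axis), with standard errors from the edgeR fit and the line of equal change dashed. Most SR and hnRNP genes lie under 0 in females and slightly over 0 in males, U snRNP genes spread around 0, and Srsf12 stands apart at -0.81 in males and 0.22 in females.

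The medians of the families in females ran from -0.42 to -0.20, and a difference between families was not tested. They are to be read beside the well-counted genes, of which 72.7% had lower estimates in females and 14.2% were lower at an unadjusted p under 0.05. All 20 hnRNP genes had lower estimates (median -0.41), 8 of them at an unadjusted p under 0.05. Of the 11 SR genes 10 had lower estimates (median -0.42), 5 at an unadjusted p under 0.05. The U snRNP genes had a median of -0.20, with 9 of 12 lower and 4 at an unadjusted p under 0.05, and the SF3 genes one of -0.28, with 8 of 9 lower and none at an unadjusted p under 0.05. The estimates followed the level too: all 37 genes with a mean of 20 CPM or more had lower estimates in females (median -0.40), against 10 of the 15 genes under 20 CPM (median -0.14).

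Hnrnpab had the smallest unadjusted p in females. It stood at 37.0, 37.1 and 32.2 CPM in room air females 2, 5 and 6 and at 23.4, 23.5 and 23.6 CPM in hyperoxia females 2, 4 and 5, so the groups lay far apart and the hyperoxia lungs hardly varied. The log2 change was -0.59 (SE 0.17, edgeR unadjusted p = 0.00124, adjusted p = 0.290). It was -0.45 without room air females 2 and 5 and -0.35 when the receptor share entered the model. In males the gene was at 22.6, 28.4 and 28.02 CPM in room air and at 30.8, 18.5 and 30.3 CPM in hyperoxia, with a change of 0.02 (SE 0.17).

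Snrpb2 in females went from 17.4, 23.3 and 19.5 CPM in room air to 13.9, 14.5 and 13.7 CPM in hyperoxia, without overlap, a log2 change of -0.52 (SE 0.15, edgeR adjusted p = 0.309). Snrpa, for the U1-specific protein A, went from 29.1, 33.8 and 24.4 CPM to 23.3, 17.7 and 23.1 CPM, a change of -0.45 (SE 0.16, edgeR adjusted p = 0.352). The Sm protein genes differed among themselves. Snrpd1 had a female change of -0.01 (SE 0.21), Snrpd2 of 0.10 (SE 0.15), Snrpe of -0.04 (SE 0.21) and Snrpf, with 7 to 24 counts per lung, of 0.41 (SE 0.39), while Snrpb had -0.37 (SE 0.17), Snrpd3 -0.35 (SE 0.15) and Snrpg, whose groups did not overlap, -0.19 (SE 0.21).

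Among SR genes Srsf7 (ENSMUSG00000024097, mm10 chr17:80200080-80207307, minus strand), whose protein carries a zinc knuckle and takes part in mRNA export, had the smallest unadjusted p in females, equal to 3 digits to that of Srsf10. Its level was 54.2, 70.4 and 43.5 CPM in room air females 2, 5 and 6 and 44.7, 37.2 and 33.2 CPM in hyperoxia females 2, 4 and 5. These ranges overlapped by 1 hyperoxia lung, and the log2 change was -0.55 (SE 0.21, edgeR adjusted p = 0.354). Srsf1, the first SR protein to be described in depth, had a female change of -0.56 (SE 0.24, edgeR adjusted p = 0.368). In the SF3 group the smallest unadjusted p in females was that of Sf3b3 (ENSMUSG00000033732, mm10 chr8:110810239-110846787, minus strand), an SF3b subunit, close to that of Sf3b1. Sf3b3 stood at 107.3, 114.6 and 84.8 CPM in room air and 76.5, 73.2 and 83.01 CPM in hyperoxia. The nearest lungs of its groups were 1.8 CPM apart, and the change was -0.40 (SE 0.20, edgeR adjusted p = 0.399).

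**Figure D4:**
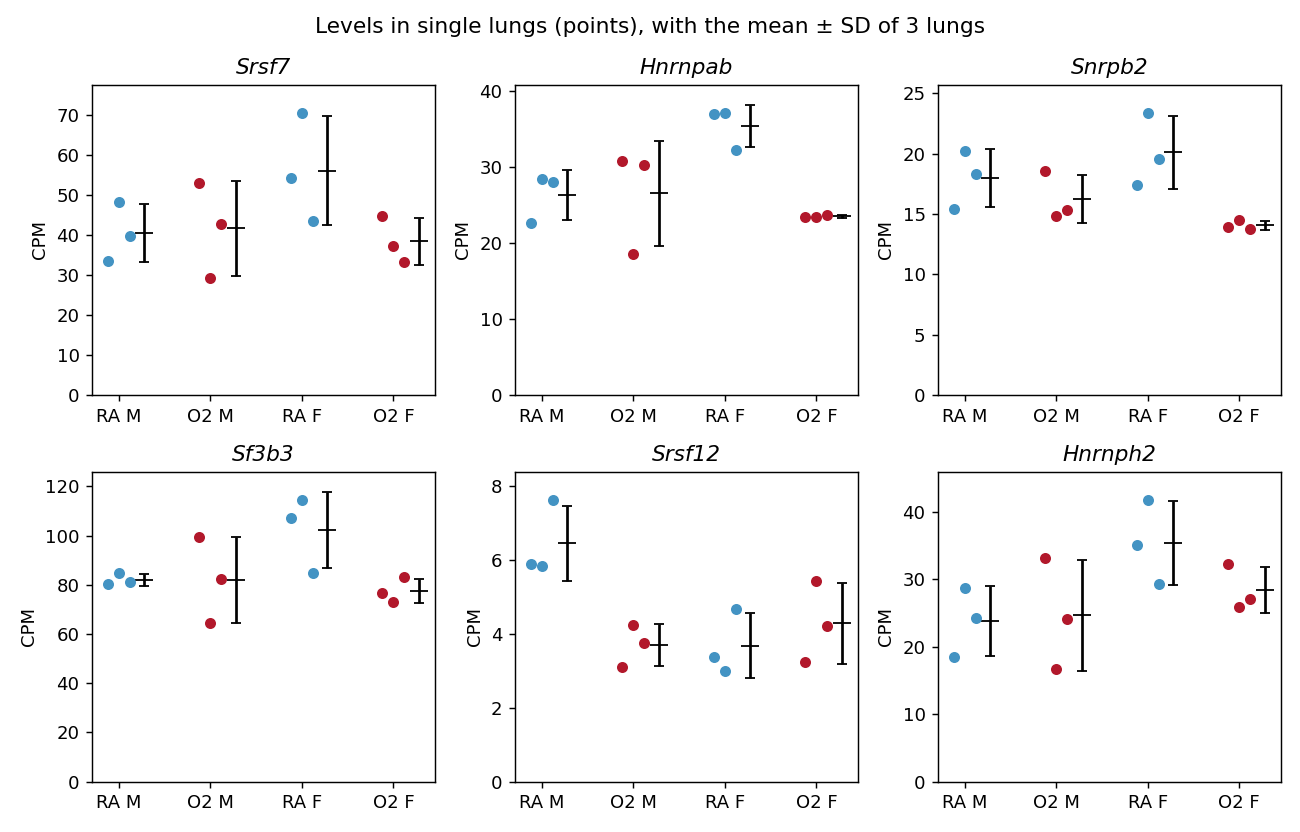
CPM of 6 splicing factor genes in single lungs (points; blue room air, red hyperoxia) with the mean and SD of the 3 lungs of each group (RA, room air; O2, hyperoxia; M, males; F, females). Hnrnpab and Snrpb2 in females and Srsf12 in males do not overlap between exposures, and Hnrnph2 overlaps in both sexes.

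In males the estimates lay near 0. The median log2 change of the 52 genes was 0.05, against 0.03 over the well-counted genes, and 18 had lower and 34 higher estimates. None was called by edgeR or DESeq2, neither called any of all genes tested (0.0%), and 1 of the 52 genes was lower at an unadjusted p under 0.05 (against 1.80% of all genes) and none higher (against 0.899%). The hyperoxia males were widely spread: the summed level of the 52 genes had an SD of 862 CPM around 3056 CPM there, against 401 CPM around 2869 CPM in room air males, and the median change lay between -0.13 and 0.23 as each lung was left out. Without room air male 1, the lung with the skeletal muscle markers, it was -0.04. The direction turned when the receptor share entered the model, to a median of -0.06 with 38 of the 52 genes lower, and with background subtracted, to -0.01 with 28 of 51 lower.

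Srsf12 (ENSMUSG00000054679, mm10 chr4:33208991-33233340, plus strand) was the gene at an unadjusted p under 0.05 in males. It encodes an SR protein that has been described as an inhibitor of splicing, and had few counts, 37 to 95 per lung. Its level was 5.9, 5.8 and 7.6 CPM in room air males 1, 4 and 5 and 3.1, 4.2 and 3.8 CPM in hyperoxia males 1, 2 and 3. The groups did not overlap. It was the only gene of the 52 with every hyperoxia male under every room air male, against 3.89% of all genes and 2.02% of the well-counted genes, and none had them over, against 2.73% and 2.38%. The log2 change was -0.81 (SE 0.25, edgeR unadjusted p = 0.00332, adjusted p = 1.00). In females it stood at 3.4, 3.0 and 4.7 CPM in room air and 3.2, 5.4 and 4.2 CPM in hyperoxia, with a change of 0.22 (SE 0.26). With 85.1% of its counts estimated as background, the size of this change could not be set: it was -0.74 when the receptor share entered the model and -4.07 with background subtracted, where few counts were left, and neither was called.

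**Figure D5:**
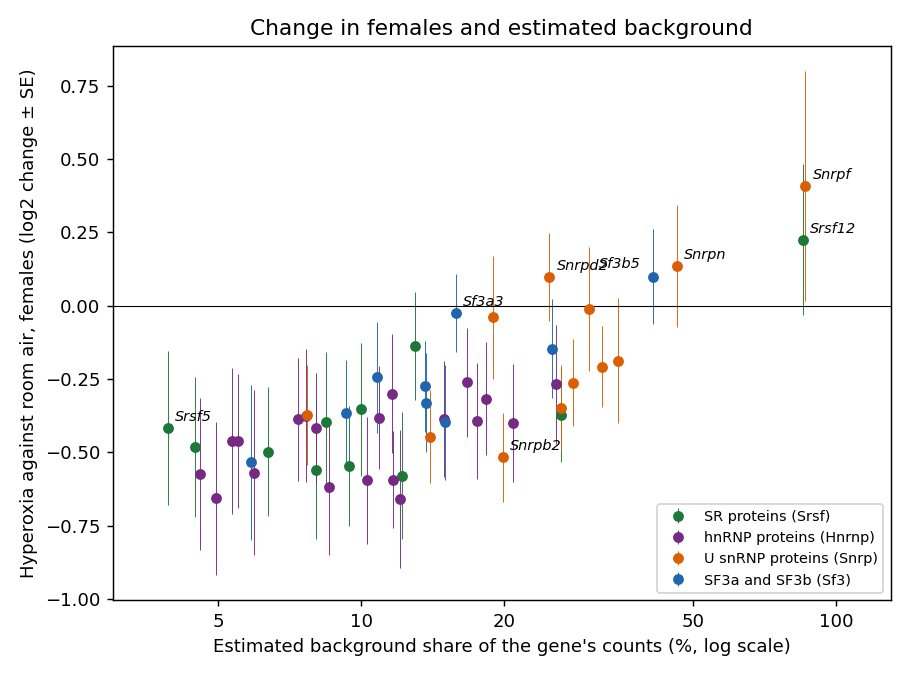
Log2 change in hyperoxia females (vertical axis, with standard errors) of each of the 52 splicing factor genes against the estimated percentage of its counts that is background (horizontal axis, log scale), from the density of reads on receptor genes. Changes lie under 0 for nearly all genes with a background share under 20% and around or over 0 for the genes with the largest shares, Snrpn, Srsf12 and Snrpf.

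The difference of the hyperoxia effect between the sexes was also tested for each gene. None of the 52 genes was called by edgeR or DESeq2, neither called any of all genes tested (0.0%), and all of the 52 had an adjusted p of 0.578 or more. The estimate (females minus males) was under 0 for 44 of the 52 genes, with a median of -0.44, against -0.22 over the well-counted genes. At an unadjusted p under 0.05, 8 of the 52 were lower and 1 was higher, against 2.40% lower and 6.06% higher of all genes and 5.34% lower of the well-counted genes. Srsf12 was the higher gene, with a difference of 1.03 (SE 0.36, edgeR adjusted p = 0.578). As 85.1% of its counts were estimated as background, the size of this difference could not be set either. Srsf10, whose protein represses splicing when it loses phosphate groups, had the smallest unadjusted p of the 8, with a difference of -0.85 (SE 0.31, edgeR adjusted p = 0.578), a female change of -0.58 and a male change of 0.27.

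Of the genes with the smallest p for this difference in the other families, Hnrnpab had -0.61 (SE 0.23), Snrpa -0.52 (SE 0.22) and Sf3b1 -0.67 (SE 0.37), all with an edgeR adjusted p of 0.578. Sf3b1 was at 295.9, 332.6 and 216.2 CPM in room air females and 230.9, 183.5 and 168.9 CPM in hyperoxia females, which overlapped. When the receptor share entered the model, the median difference of the 52 genes was 0.02, and none was lower at an unadjusted p under 0.05. Without room air females 2 and 5 the median difference was -0.16. With protein-coding genes alone it was -0.21, against -0.0023 for the well-counted genes and with 3 genes lower at an unadjusted p under 0.05, and with background subtracted it was -0.28, with 2 lower. The 8 genes lower at an unadjusted p under 0.05 became 33 without hyperoxia male 2, 25 without room air female 6, 18 without room air male 4 and 13 without hyperoxia female 2, and 2 to 4 without any other lung, and 15 with DESeq2.

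The calls changed with 1 factor of unwanted variation estimated from the residuals (RUVr, the kind of correction the study used). With it 3 of the 52 genes were called in females, against 4.15% of all genes, and 11 for the difference between the sexes, against 4.58%. At an adjusted p below 0.05 with no limit on the fold, 37 of the 52 passed in females, against 16.7% of all genes and 39.1% of the well-counted genes. For the difference between the sexes 33 passed, against 11.7% and 28.3%, and over both sexes 19 passed, against 4.51% and 13.2%. The 3 in females were Hnrnpa2b1 (-0.64, SE 0.07, edgeR adjusted p = 3.36e-09), Hnrnpf (-0.66, SE 0.10) and Hnrnpab (-0.59, SE 0.10). The 11 were Hnrnpa2b1, Hnrnpab, Hnrnpdl, Hnrnph1, Hnrnpu, Sf3b1, Srsf2, Srsf4, Srsf5 and Srsf10, with estimates under 0, and Srsf12, over 0. The estimates hardly moved (the median in females was -0.37), while the standard errors were smaller. The factor was taken from the residuals of these same 4 groups, so it takes up spread within groups and leaves group means nearly in place. Smaller standard errors, on which the added calls rest, follow from how it was made. In each of the 4 groups the order of the 3 lungs by this factor was the reverse of their order by receptor share. No gene of the 52 was called with it over both sexes, in males or in the comparison of females with males.

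Females were also compared with males, averaged over the exposures. Of the 52 genes 42 had higher estimates in females, with a median log2 difference of 0.10, against 0.04 over the well-counted genes. The direction turned when the receptor share entered the model, to a median of -0.03 with 32 genes lower. Without room air females 2 and 5, the median was -0.05 with 39 lower. These lungs were left out because these genes stood highest there, a choice that favours this shift. None of the 52 was called by edgeR or DESeq2, against 1.22% of all genes by edgeR and 1.73% by DESeq2, and the smallest adjusted p was 0.315. At an unadjusted p under 0.05, 1 was higher in females, against 4.05% of all genes and 3.90% of the well-counted genes, and none was lower, against 2.83% and 0.885%. Without hyperoxia male 1 the number higher was 5, and 1 gene passed an adjusted p of 0.05 (edgeR adjusted p = 0.0195), against 1.58% of all genes. Without room air female 6 the number higher was 3. With 1 RUVr factor 7 passed an adjusted p below 0.05 with no limit on the fold, against 4.68% and 7.57%. In that fit 20 were higher and 1 was lower at an unadjusted p under 0.05, but the shares over all genes were not computed. The gene with the smallest p was Hnrnph2 (ENSMUSG00000045427, mm10 chrX:134601179-134607060, plus strand), the X-linked member of the H/F type of hnRNPs, at 18.4, 28.7 and 24.2 CPM in room air males, 33.1, 16.7 and 24.1 CPM in hyperoxia males, 35.0, 41.7 and 29.3 CPM in room air females and 32.3, 25.8 and 27.1 CPM in hyperoxia females. Its room air females lay over its room air males, and the hyperoxia groups overlapped. The log2 difference (females minus males) was 0.39 (SE 0.14), and 11.1% of its windows occur elsewhere. Its change in hyperoxia over both sexes was -0.13 (SE 0.14).

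Snrpn, an imprinted gene for the Sm protein N, which replaces B/B' in brain, was low in the lung at 2.62 CPM per kb. It was at 5.1, 6.1 and 6.5 CPM in room air males, 6.2, 5.1 and 5.5 CPM in room air females, 5.0, 5.4 and 4.7 CPM in hyperoxia males and 5.2, 6.3 and 6.9 CPM in hyperoxia females. All groups overlapped, and the change over both sexes was -0.05 (SE 0.15). Its exons overlap those of Snurf on the same strand, so their reads cannot be told apart.

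The other genes under the naming rule were not called over both sexes, each with overlapping groups and an edgeR adjusted p of 0.927 or more. Their log2 changes were -0.0021 (SE 0.19) for Srsf5, -0.21 (SE 0.18) for Hnrnph1, -0.02 (SE 0.13) for Hnrnph3, -0.15 (SE 0.12) for Snrpb, -0.19 (SE 0.12) for Sf3a1, a subunit of SF3a, -0.16 (SE 0.11) for Sf3b4, an SF3b subunit with RNA recognition motifs, and -0.07 (SE 0.09) for Sf3a3, another SF3a subunit. Srsf5 ranged from 81.1 to 186.6 CPM in hyperoxia and from 82.9 to 165.9 CPM in room air, and Sf3a3 from 18.8 to 21.8 CPM and from 21.0 to 23.3 CPM. For Sf3b4, 38.1% of the windows occur elsewhere.

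Other genes of the pathway were counted from 4 lists of known parts of the pathway, to be read beside the 2.52% of all genes and 5.78% of the well-counted genes that were lower at an unadjusted p under 0.05 over both sexes. Of 46 further core spliceosome genes none was called and 1 was lower at an unadjusted p under 0.05, 38 had lower estimates over both sexes (median -0.07) and 40 in females (median -0.21). Snrnp27, a protein of the U4/U6.U5 tri-snRNP, had the smallest p with -0.28 (SE 0.11), followed by Puf60, which helps to select the 3' splice site, with -0.23 (SE 0.12), both with an edgeR adjusted p of 0.927. Of 43 other regulators of alternative splicing none was called and 3 were lower at an unadjusted p under 0.05, with medians of -0.11 over both sexes and -0.31 in females. Rbm38, an RNA-binding target of p53, went from 23.9 ± 2.5 to 17.9 ± 2.5 CPM (SD, n = 6 each), a change of -0.41 (SE 0.10, edgeR adjusted p = 0.361) that was -0.42 in females and -0.41 in males, and Khdrbs3 had -0.26 (SE 0.11, edgeR adjusted p = 0.927).

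The 13 kinases, phosphatase and importers of SR proteins had none called between the exposures and 1 lower at an unadjusted p under 0.05, with 12 lower estimates over both sexes (median -0.13) and 13 in females (median -0.36). Ppp1ca, a catalytic subunit of protein phosphatase 1, had -0.35 (SE 0.16) and Tnpo3, the importer of SR proteins, -0.17 (SE 0.13), both with an edgeR adjusted p of 0.927. Of the 24 genes of U snRNP assembly 14 had lower estimates over both sexes, with medians of -0.03 both there and in females, and none was called. At an unadjusted p under 0.05 none was lower or higher over both sexes. In females 3 of 46 core genes, 9 of 43 regulators, 3 of 13 kinases, phosphatase and importers and 2 of 24 assembly genes were lower at that level, against 5.28% of all genes and 14.2% of the well-counted genes. Gemin7 of the SMN complex had -0.23 (SE 0.12) and Tgs1, which adds the trimethyl cap of the snRNAs, -0.18 (SE 0.12), again with an edgeR adjusted p of 0.927.

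Cell type markers also varied between these lungs, and their part in the results was not tested. All 7 alveolar type 2 markers had lower estimates in hyperoxia females (median -0.56), with summed levels of 6172 to 11940 CPM in room air and 5805 to 7548 CPM in hyperoxia, and none did in males. All 6 endothelial markers (median -0.44, 1483 to 2232 against 1270 to 1668 CPM), all 6 alveolar type 1 markers (median -0.47, 1099 to 1614 against 909 to 1127 CPM) and all 4 airway markers (median -0.57, 6263 to 12299 against 4397 to 6464 CPM) had lower estimates in females too. Of these, 1 alveolar type 2, 1 endothelial, 3 alveolar type 1 and 1 airway marker were lower at an unadjusted p under 0.05, none was called, and the ranges overlapped. The 4 B cell markers were lower at an unadjusted p under 0.05 in females, with 114 to 175 CPM in room air and 92.0 to 123 CPM in hyperoxia. The 5 erythroid markers were lower in both sexes, 3 of them called over both sexes, at 5452 to 7881 CPM in room air females against 1247 to 2927 CPM in hyperoxia females, and at 5118 to 7331 CPM in room air males against 2109 to 4650 CPM in hyperoxia males. Of the 6 markers of proliferating cells 1 had a lower estimate in females and 5 in males, with summed levels of 124 to 135 CPM in room air females, 102 to 147 CPM in hyperoxia females, 126 to 152 CPM in room air males and 102 to 122 CPM in hyperoxia males. Of the 5 cardiac muscle markers 4 were lower at an unadjusted p under 0.05 in females (median -0.46), with 151 to 170 CPM in room air and 73.8 to 102 CPM in hyperoxia, without overlap. Other lists lay mostly the other way in females. The T cell markers summed to 73.6 to 75.3 CPM in room air and 78.4 to 83.1 CPM in hyperoxia, with 2 of 6 lower estimates. Of the thymocyte markers 5 of 6 had higher estimates (median 0.36), but at an unadjusted p under 0.05 1 was lower and 1 higher. All 5 neuron markers had higher estimates (median 0.27), 1 at an unadjusted p under 0.05. In females the median over 7 markers of skeletal muscle was 0.25. No marker of any list was at 0 in any lung.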

How the data were processed

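The deposited values are raw counts per gene, without normalization, which the authors obtained with Trim Galore, STAR (mm10) and featureCounts. Versions, annotation release and strand setting are not given in the sources used here. The labels name a directional kit with rRNA depletion and the study's methods another kit for total RNA.

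The 4 groups were fitted with edgeR's quasi-likelihood method, robust (R 4.3.3, edgeR 4.0.16, limma 3.58.1) after filterByExpr, which left 45828 genes, and scaling to upper quartiles. The contrasts were hyperoxia against room air over both sexes and in each sex, their difference, and females against males. A call required a change of more than 1.5-fold and a Benjamini-Hochberg adjusted p, over all genes tested, below 0.05. CPM used the normalized library sizes. ComBat-seq, which the study applied, was left out here, and how many RUVr factors it used is not given in the sources used here. Counts were simulated for the comparison over both sexes (45828 genes), and recovery meant an adjusted p below 0.05 with no limit on the fold. By this measure 43 of 69 genes changed 1.5-fold, 63 of 66 changed 2-fold and 65 of 65 changed 4-fold were recovered, with 16 false positives. Changed genes had to reach a minimum mean count, and noise was drawn for each gene on its own. The simulation therefore does not give the sensitivity of the calls. Alternatives were TMM, DESeq2 1.42.0, other filters, protein-coding genes only, 1 RUVr factor, the receptor share as a term, subtracted background, a block for animal number, the libraries of a single sex and each lung left out. Leaving out room air females 2 and 5 together was chosen after seeing the data. Tables and figures were made in Python 3.11.15 with matplotlib 3.10.9, numpy 2.4.6 and pandas 2.3.3.

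Positions and exon lengths came from GENCODE M21 (GRCm38), which matched 55227 of 55487 genes. As an estimate of background, the reads per kb of exon on receptor genes (their median in a library) were multiplied by a gene's exon length and divided by its counts. Of the 52 genes, 23 have exons that overlap another gene and 7 share over 10% of their 75-letter windows with other genes.

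Members and gene lists were chosen with earlier results of these data known. The text names, in each family, the 2 genes with the smallest unadjusted p over both sexes, the gene with the smallest in females, in males and for their difference, and the gene with the most CPM per kb, with Snrpn and X-linked Hnrnph2. From each list of other pathway genes it names the 2 with the smallest p. Srsf1, Srsf2, Srsf10, Hnrnpa2b1, the other Sm genes and those listed as not overlapping or as called were named after their values were seen. Nothing in the labels says that lungs came from separate litters, so p-values measure the spread between these lungs.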

Additional observations from a re-analysis of the deposited data

Results flagged for a closer look

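Of the 36 groups of 6 lungs checked (18 named splicing factor genes in each exposure), 1 held a lung far from the others by Dixon's test. Snrpb2 was at 18.5 CPM in hyperoxia male 1, and the next lung of the hyperoxia group was at 15.4 CPM, a gap of 0.664 of the whole range. Chance gives this in about 1 in 20 groups. Hyperoxia male 1 also had the lowest receptor share of the hyperoxia lungs, 0.547% of the counts, and its part in this value was not tested.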

How the results depend on the processing

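No splicing factor gene was called in any of the 5 comparisons with TMM normalization, DESeq2, all genes kept, at least 10 counts required per library, protein-coding genes only, the receptor share in the model, background subtracted, any lung left out, or room air females 2 and 5 left out (added after the data were seen), nor in either sex fitted alone. With 1 RUVr factor 3 were called in females and 11 for the difference between sexes. That factor came from the residuals of the same groups, which by itself makes standard errors smaller, and what it stands for was not tested. The median log2 change in females was -0.0285 with the receptor share in the model, -0.0848 without room air females 2 and 5, and -0.52 to -0.28 as each lung was left out. Over both sexes these leave-one-out medians ran from -0.25 to -0.08, and in males from -0.13 to 0.23. The number of genes lower at an unadjusted p under 0.05 over both sexes was 2 with protein-coding genes only, 35 with 1 RUVr factor, and 1 to 15 as each lung was left out.

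With the animal number as a replicate block that number was 0, and the block changed no call. Its median was -0.16 over both sexes and -0.44 in females, where the smallest adjusted p was 0.0539. Lungs with the same number did not deviate together (correlations of 0.06, -0.17 and -0.30), so they share only a number, and males shared a single number, so no paired fit was made there.

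Of 660 recomputed single-gene changes, 609 kept their direction and side of an adjusted p of 0.05, taken with no limit on the fold. A further 16 passed that adjusted p, all with 1 RUVr factor, though not all of them were calls. Another 35, of 8 genes with changes of -0.21 to -0.0021 over both sexes, turned positive. Srsf5 became 0.0266 with at least 10 counts required, 0.0674 with protein-coding genes only and also with background subtracted, 0.188 with the receptor share in the model, 0.0538 with the block and 0.208 without room air females 2 and 5, and ran from -0.15 to 0.13 as each lung was left out. Hnrnph3 in that order became 0.0129, 0.0588, 0.0352, 0.137, 0.0294 and 0.166, and ran from -0.111 to 0.0828. Snrpn became 0.0363 with protein-coding genes only and 0.0653 with the block, and ran from -0.0950 to 0.0040. Hnrnph2 became 0.0335 with the receptor share in the model, 0.0257 with the block and 0.0166 without room air females 2 and 5, where Hnrnph1 became 0.0415, Snrpb 0.0063 and Sf3b4 0.0021. Sf3a3 became 0.0086 with protein-coding genes only. Depth was a limit for Snrpf, with 7 to 24 counts per lung, and for Srsf12, with 37 to 95.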
